A study of Ctenopharyngodon idella and Danio rerio with 13 samples.

Results

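Sperm RNA was counted per gene in 13 libraries, and 19 genes are described here that were found again and again in zebrafish sperm and do not code for ribosomal proteins. They were chosen by their raw counts in zebrafish libraries: at least 15 counts in each of zebrafish replicates 1, 2, 4 and 5. Zebrafish replicate 3 was not used for the choice. Entries without a gene symbol proper (symbols of LOC plus digits, tRNA genes and unnamed entries) were left out. So were symbols with set beginnings, such as those of ribosomal proteins, initiation factors, hox and sox genes, heat shock genes and respiratory chain genes. Homeobox genes with other symbols stayed eligible, and the members zfhx3b and zfhx4 are among them. Of 31338 entries in the files 54 reached the count threshold, and 35 of these fell to the exclusions: 16 ribosomal protein genes, 13 with LOC symbols, 5 of the other families and 1 unnamed entry. The 19 that stayed came from 17361 entries with an eligible symbol.

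The libraries came from 3 GSCT fish, 5 grass carp and 5 zebrafish, each library from a different fish. GSCT stands for germline stem cell transplantation: a zebrafish host made the sperm, the labels give the genotype as surrogate reproduction and the organism as grass carp, and the series title names the transplanted cells as female germline stem cells. Grass carp and zebrafish were labelled wildtype, with no age given for any group, and every library was made from diluted whole sperm with an amplification kit meant for single cells. Total counts on named genes were 376926 to 2602370 in GSCT, 1335167 to 5471312 in grass carp and 487 to 248321 in zebrafish libraries, the 487 being zebrafish replicate 3. Of 31314 named entries, the same in all libraries, 29690 matched 1 symbol of a grass carp table, though the build is not given. A zebrafish count thus appears to be a zebrafish read that aligned to a grass carp gene, and a low count cannot be told apart from poor alignment. Levels are given in CPM, with the counts on named genes of each library scaled to the same total. Ribosomal RNA genes held 86.1, 16.7, 9.24, 52.7 and 48.7% of those in zebrafish replicates 1 to 5, against at most 1.79% in any GSCT or grass carp library, so CPM values of single zebrafish libraries move with that share. The threshold of 15 counts was 60.4, 253, 142 and 81.8 CPM in zebrafish replicates 1, 2, 4 and 5. A member below 60.4 CPM in every GSCT and grass carp library therefore lies under these 4 libraries by the rule alone.

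Mature sperm are nearly silent in transcription. Their chromatin is tightly packed, most of the cytoplasm is shed, and the RNA they carry is mainly left over from earlier germ cell stages. Transcripts of actin and other housekeeping genes are therefore usual contents of sperm RNA, but they are also usual contents of any other cell in a sample. Sperm are recognised by transcripts of the flagellum. Of 23 flagellum genes looked up, 6 to 11 had a count in zebrafish replicates 1, 2, 4 and 5, with summed levels of 218 to 2110 CPM, and 9 were at 0 in all 5 zebrafish libraries, among them tekt1, tekt4, rsph1, rsph9 and spef2. GSCT and grass carp libraries had counts on all 23, with sums of 1725 to 1914 CPM. That is not particular to flagellum genes, since 28173 to 30154 of 31314 named entries had a count in these libraries. All 11 oocyte and all 14 leukocyte genes looked up had counts there too. In zebrafish libraries 237 to 6264 named entries had a count, so a gene at 0 is usual there.

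The working name of the set spoke of recurrent messages and gave actb2, chmp5b and mybpc2a as its marks, and the counts bear this out for actb2 alone. Cytoplasmic actin actb2 had 681, 512, 36, 4029 and 2073 counts in zebrafish replicates 1 to 5. The gene chmp5b, of the ESCRT machinery that cuts membrane necks, had 0, 481, 3, 1022 and 966 counts and so was missing from replicate 1. Myosin binding protein C of fast muscle, mybpc2a, had 13, 770, 20, 1433 and 5715 counts and stayed 2 counts under the threshold in replicate 1. Neither chmp5b nor mybpc2a is a member, although each was abundant in replicates 2, 4 and 5. In GSCT replicates 1 to 3 chmp5b stood at 20.0, 20.1 and 26.5 CPM and mybpc2a at 73.0, 96.8 and 69.0 CPM. In grass carp replicates 1 to 5 the values were 20.3, 12.3, 14.2, 10.5 and 19.7 CPM for chmp5b and 83.8, 74.8, 87.4, 106 and 67.8 CPM for mybpc2a. The GSCT and grass carp ranges overlapped for both. With replicate 1 left out of the rule 45 genes passed, the 19 members and chmp5b and mybpc2a among them, and without replicate 2, 4 or 5 the number was 35, 41 or 23.

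By role the 19 members are 3 actin cytoskeleton genes (actb1, actb2, tmsb4x), 2 titins (ttn.1, ttn.2), 9 DNA-binding factors (zbtb20, zbtb18, znf644b, znf423, zfhx3b, zfhx4, prdm16, bcl11aa, tcf7l2), the histone acetyltransferase kat6b, 2 regulators of mRNA after transcription (tnrc6ba, zfp36l1a), the adhesion gene igsf9ba and si:ch73-1a9.3, for which no role is given here. All 19 are protein-coding in the grass carp RefSeq table and lie on 14 chromosomes. The pair ttn.1 and ttn.2 are direct neighbours, and actb1 and actb2 are close copies whose reads the counting could split either way. Members at the edge of the rule were zbtb20 (15 counts in replicate 4) and prdm16, zbtb18 and znf423 (15 counts each in replicate 2). Just outside, tied at a lowest count of 14, were znf827, casz1, meis1b, cacna1c and prox1a.

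**Figure D1:**
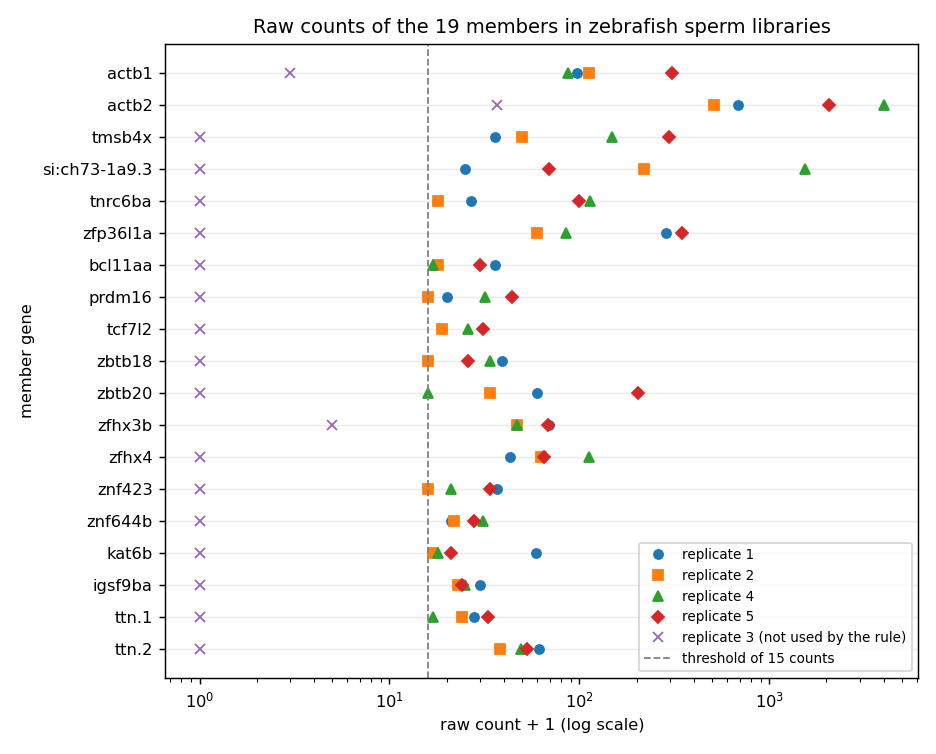
Raw counts (plus 1, log scale) of each of the 19 members in the 5 zebrafish libraries; each symbol is 1 library and the dashed line is the threshold of 15 counts. actb2 reaches 4029 counts in replicate 4, most DNA-binding factors sit close to the line, and replicate 3 has a count on actb2, actb1 and zfhx3b only among the 19.

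The rule did not use zebrafish replicate 3, a library of 487 counts on 237 of 31314 named entries. That is 0.757% of named entries, and 3 of the 19 members were among them: actb2 with 36 counts, zfhx3b with 4 and actb1 with 2. Together the members made up 8.62% of its named counts. A gene without a count there could still have stood at up to 6160 CPM (3 counts), a limit that covers counting error only, so 16 members at 0 in this library say little about their level.

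Actin cytoskeleton genes took the greater part of the members' counts in most zebrafish libraries. Their share was 49.0, 51.5, 90.5, 66.2 and 69.7% of the members' counts in replicates 1 to 5, against 1.02 to 1.44% in GSCT and 1.38 to 1.70% in grass carp. In bulk samples like these, fewer cells of a type and less RNA per cell cannot be told apart. For actb2 the level was 2742, 8643, 73922, 38177 and 11311 CPM in zebrafish replicates 1 to 5. In GSCT replicates 1 to 3 it was 9.99, 11.7 and 7.96 CPM, and in grass carp replicates 1 to 5 it was 17.6, 12.6, 19.4, 10.5 and 11.9 CPM. Every zebrafish library thus lay above every GSCT and grass carp library, an order that the threshold sets in the 4 libraries of the rule. CPM is a share of counts, spread over 237 to 6264 named entries in zebrafish libraries and 28173 to 30154 in the others. Median protein-coding CPM was 0 in each zebrafish library and 26.2 to 29.25 elsewhere, so CPM does not compare these groups like for like. The zebrafish libraries themselves differed widely. The lowest was replicate 1, the library with the highest ribosomal RNA share, and without ribosomal RNA genes in the totals it was replicate 2 (10369 CPM, against 19784 CPM in replicate 1). The near copy actb1 stood lower, at 387, 1891, 4107, 815 and 1664 CPM in zebrafish replicates 1 to 5. Its 4107 CPM in replicate 3 rest on 2 counts. Among the 4 libraries of the rule actb1 was highest in replicate 2, while actb2 was highest in replicate 4. Without ribosomal RNA genes in the totals, replicate 4 was the highest of the 4 for actb2 (80633 CPM) and the lowest for actb1 (1721 CPM). GSCT libraries had 7.69, 9.35 and 7.96 CPM of actb1. Grass carp replicates 1, 2, 4 and 5 had 9.58, 6.27, 8.99 and 7.31 CPM of it, with replicate 3 (53 counts) just above replicate 1.

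Thymosin tmsb4x, which binds actin monomers, had 35, 49, 0, 147 and 297 counts in zebrafish replicates 1 to 5, or 141, 827, 0, 1393 and 1621 CPM. It stood at 3.46, 6.08 and 5.31 CPM in GSCT and at 3.52, 7.06, 6.98, 7.49 and 6.95 CPM in grass carp. All 4 zebrafish libraries used for the rule were far above all GSCT and grass carp libraries, an order that the threshold sets for a gene this low in the latter. Replicate 1 was the lowest of them, but without ribosomal RNA genes in the totals replicates 1 and 2 were close, at 1017 and 992 CPM. Of 35 actin, tubulin and cytoskeleton genes looked up, 9 including the 3 members had a count in all 4 libraries of the rule, and 9 were at 0 in all 5 zebrafish libraries.

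The gene si:ch73-1a9.3 was the most uneven member. It had 24, 218, 0, 1542 and 68 counts in zebrafish replicates 1 to 5, so that replicate 4 held 83.3% of its counts over the 4 libraries of the rule. Its level there was 14611 CPM, against 96.6, 3680 and 371 CPM in replicates 1, 2 and 5, a 151-fold range (44.3-fold when ribosomal RNA genes are left out of the total). In GSCT it was at 12.3, 10.8 and 5.31 CPM and in grass carp at 11.7, 12.3, 14.0, 10.5 and 14.1 CPM. All 4 zebrafish libraries of the rule were above these, as the threshold requires at such levels.

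Of the genes that act on mRNA, zfp36l1a codes for a zinc finger protein that binds AU-rich elements and promotes mRNA decay. Its levels were 1148, 996, 796 and 1893 CPM in zebrafish replicates 1, 2, 4 and 5, or 285, 59, 84 and 347 counts. The range was 2.38-fold, and 6.93-fold without ribosomal RNA genes in the totals. GSCT libraries had 32.3, 26.2 and 13.3 CPM and grass carp libraries 32.8, 25.1, 21.9, 30.7 and 19.7 CPM, with 0 counts in zebrafish replicate 3. Its zebrafish counts were spread otherwise than those of actb2: replicates 1 and 5 led, while replicates 4 and 5 led for actb2. The other gene, tnrc6ba, codes for a partner of Argonaute in microRNA silencing and had 26, 17, 113 and 98 counts in the same 4 libraries, or 105, 287, 1071 and 535 CPM, and 0 in replicate 3. It stood at 34.6, 31.3 and 26.5 CPM in GSCT and at 35.6, 28.2, 44.7, 29.2 and 28.7 CPM in grass carp. The zebrafish libraries of the rule were again above these, an order that the threshold sets at such levels.

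**Figure D2:**
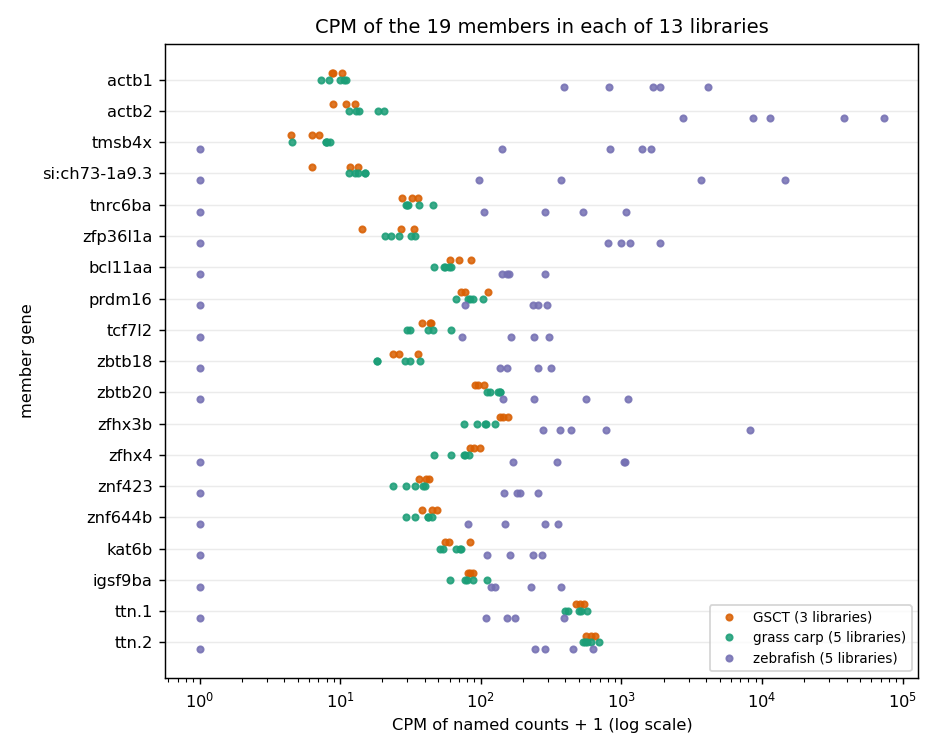
Level in CPM of named counts (plus 1, log scale) of the 19 members; each point is 1 library, coloured by group. Zebrafish points for actb2, actb1, tmsb4x, si:ch73-1a9.3 and zfp36l1a lie far right of the GSCT and grass carp points, while the titins ttn.1 and ttn.2 have zebrafish points at or left of the others (an order that turns when ribosomal RNA genes leave the totals), and points at the left edge are libraries with 0 counts.

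The 9 DNA-binding factors are regulators of development. The relatives zfhx3b and zfhx4 carry zinc fingers and homeodomains, and zbtb20 and zbtb18 are zinc finger repressors. In mammals prdm16 directs brown fat, bcl11aa's counterpart silences fetal globin and tcf7l2's acts with beta-catenin in Wnt signalling. Their zebrafish counts were low: of the 9, zfhx3b had 68, 46, 4, 46 and 67 counts in replicates 1 to 5, and zfhx4 had 42, 62, 0, 112 and 64. The highest count among the 9 was that of zbtb20, which had 59, 33, 0, 15 and 203 counts, of which replicate 5 held 65.5% of the total over the 4 libraries. The group made up 20.2, 18.5, 5.10 and 13.6% of the members' counts in zebrafish replicates 1, 2, 4 and 5, against 31.9 to 32.3% in GSCT and 28.2 to 33.1% in grass carp. These are parts of a total of which actin genes took much in zebrafish libraries, so they give no direction for the factors.

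In CPM the zebrafish libraries of the rule stood at 274, 777, 436 and 366 for zfhx3b and at 169, 1047, 1061 and 349 for zfhx4. GSCT libraries held 156, 143 and 135 CPM of zfhx3b and 83.0, 87.9 and 98.2 CPM of zfhx4. The zebrafish values lay above these, but by far less than for the actins. The threshold sets part of this order, since 15 counts were 253 CPM in replicate 2 and 142 CPM in replicate 4. It sets the order of both genes in replicate 2, and that of zfhx4 in replicate 4. The repressor zbtb20 had 238, 557, 142 and 1108 CPM in the zebrafish libraries of the rule, the highest being replicate 5.

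The other members at the edge of the rule stood lower. For prdm16, with 19, 15, 0, 31 and 43 counts in zebrafish replicates 1 to 5, the levels were 76.5, 253, 0, 294 and 235 CPM. GSCT libraries had 76.9, 71.6 and 111 CPM and grass carp libraries 82.5, 65.6, 80.4, 103 and 87.4 CPM, so zebrafish replicate 1 lay among them. The counts of zbtb18 were 38, 15, 0, 33 and 25 and its levels 153, 253, 0, 313 and 136 CPM, against 22.7, 25.3 and 34.5 CPM in GSCT and 35.8, 17.2, 30.4, 27.7 and 17.2 CPM in grass carp. The zinc finger gene znf423 had 36, 15, 0, 20 and 33 counts, or 145, 253, 0, 190 and 180 CPM, against 41.9, 35.5 and 39.8 CPM in GSCT and 38.1, 28.5, 32.8, 39.0 and 22.7 CPM in grass carp. Both were higher in the 4 zebrafish libraries of the rule than in any GSCT or grass carp library, an order set by the threshold of 15 counts. The range of znf423 among these 4 was 1.75-fold (3.44-fold without ribosomal RNA genes in the totals).

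The factors znf644b, bcl11aa and tcf7l2 ran from 16 to 35 counts and from 72.5 to 354 CPM in the 4 libraries. The acetyltransferase kat6b had 58, 16, 17 and 20 counts there (234, 270, 161 and 109 CPM), and igsf9ba, an immunoglobulin superfamily adhesion gene, had 29, 22, 24 and 23 counts (117, 371, 227 and 125 CPM).

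Titin, the giant spring protein of the sarcomere, had low counts in zebrafish libraries. In zebrafish replicates 1, 2, 4 and 5 ttn.2 had 60, 37, 48 and 52 counts and ttn.1 had 27, 23, 16 and 32. The levels of ttn.2 were 242, 624.6, 455 and 284 CPM there, 608, 561 and 647 CPM in GSCT and 602, 535, 693, 566 and 553 CPM in grass carp. On this scale all but replicate 2 were below every GSCT and grass carp library, and replicate 2 was among them. All 4 zebrafish levels of ttn.1, 109 to 388 CPM, were below the lowest grass carp library at 398 CPM. The order turned when ribosomal RNA genes were left out of the totals. Then ttn.2 stood at 1743, 749, 961 and 553 CPM in zebrafish replicates 1, 2, 4 and 5, above every GSCT and grass carp library (at most 694 CPM) in replicates 1, 2 and 4. For ttn.1 the values were 784, 465.8, 320 and 340 CPM, of which replicate 1 lay above every GSCT and grass carp library (at most 572 CPM), replicate 2 among them and replicates 4 and 5 below. The zebrafish mean over the grass carp mean moved from 0.680 to 1.70 for ttn.2 and from 0.429 to 0.996 for ttn.1, so no direction is given for the titins. Titins took 55.1 to 57.1% of the members' counts in GSCT and 54.5 to 59.0% in grass carp, but 0.995 to 5.25% in the 4 zebrafish libraries. In those 4 actb2 alone took 39.2 to 62.6% of the members' counts, which lowers the share left for any other member. The shares therefore give no direction for the titins either. Of 29 muscle contraction genes looked up, 13 were at 0 in all 5 zebrafish libraries, among them mylpfa, myl1, tnnt3a, pvalb1 and desma. Their summed level ran from 540 to 41068 CPM in zebrafish libraries (2069 to 2234 CPM in GSCT and 2084 to 2498 in grass carp). In replicates 2 to 5 mybpc2a alone gave 12999, 41068, 13578 and 31183 CPM of it, and in replicate 1 it gave 52.4 CPM.

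In 16 of the 19 members all 4 zebrafish libraries of the rule lay above every GSCT and grass carp library in CPM. The exceptions were prdm16, ttn.1 and ttn.2. The same held for 0.677% of all named entries, but the rule asked for zebrafish counts, so this count describes the choice and no test was made. With ribosomal RNA genes left out of the totals prdm16 joined the 16, and with unnamed entries added to the totals the count was 11. Over the whole set the members held 0.667, 2.21, 8.62, 6.10 and 2.09% of named counts in zebrafish replicates 1 to 5. Their share was 0.199% ± 0.0101 (SD, n = 3) over the GSCT libraries. Over the grass carp libraries it was 0.188% ± 0.0226 (SD, n = 5). Without actb2 the zebrafish mean of 3.94% ± 3.31 (SD, n = 5) was 1.24%. Both means include replicate 3 with its 487 named counts. Over replicates 1, 2, 4 and 5 the mean share with actb2 was 2.77% ± 2.33 (SD, n = 4).

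The order of the members by count was more alike between libraries within GSCT and within grass carp than between the zebrafish libraries of the rule. As a description over the 19 members, Spearman's rho between grass carp libraries was 0.975 to 0.988 and between GSCT libraries 0.946 to 0.986. Between the 4 zebrafish libraries it was 0.2085 to 0.713, lowest between replicates 1 and 4. The members had all passed a count threshold in these 4 libraries, and most DNA-binding factors sat close to it there. The zebrafish range is therefore not independent of the rule, which used no GSCT or grass carp library. Depth differed too, at 59237 to 248321 named counts in these 4 and 376926 to 5471312 in GSCT and grass carp libraries. The part of the rule and of depth in the lower zebrafish values was not tested. Libraries of a group share species, preparation and gene lengths, so the rho values describe the libraries only.

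Gene span, the genomic length from first to last base with introns, differed widely among the members. The rule did not name span but is not independent of it. In its 4 zebrafish libraries counts rose with span over protein-coding entries (Spearman's rho of 0.210 to 0.291), so a raw count threshold favours long genes. The members' median span was 60.6 kb against 11.0 kb over 25130 protein-coding entries, and 13 of the 19 were longer than that median. The 5 shortest members, tmsb4x, actb2, si:ch73-1a9.3, actb1 and zfp36l1a, spanned 1.56 to 5.22 kb, and the other 14 spanned 8.64 to 256 kb. These 5 also had the highest zebrafish levels per kb of span, at 231 to 4066 CPM per kb (mean of replicates 1, 2, 4 and 5), while the other 14 had 0.837 to 24.7 CPM per kb. In grass carp the ranges of the 2 sets overlapped, at 2.18 to 4.99 and 0.189 to 3.67 CPM per kb, around a median of 2.57 for protein-coding entries. The split into 5 and 14 was made after these values were seen and has no test, and dividing by span itself raises short members that passed a count threshold. Where a gene's reads come from spliced mRNA, its level per kb of span is understated for long introns.

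In grass carp libraries the members' counts followed span, with Spearman's rho of 0.793 to 0.831 over the 19 members and 0.634 to 0.680 over protein-coding entries. GSCT libraries gave 0.780 to 0.839 over the members. The 4 zebrafish libraries of the rule gave -0.594 to -0.210 over the members and 0.210 to 0.291 over protein-coding entries, so that longer members had lower counts there. The members had all passed a count threshold in these libraries, so the first of those ranges is not independent of the rule. Set beside protein-coding genes of like span (the same span decile), 13 of 19 members lay between the quartiles of grass carp levels, with zbtb20, zfhx3b, ttn.1 and ttn.2 above it and actb1 and znf423 below.

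**Figure D3:**
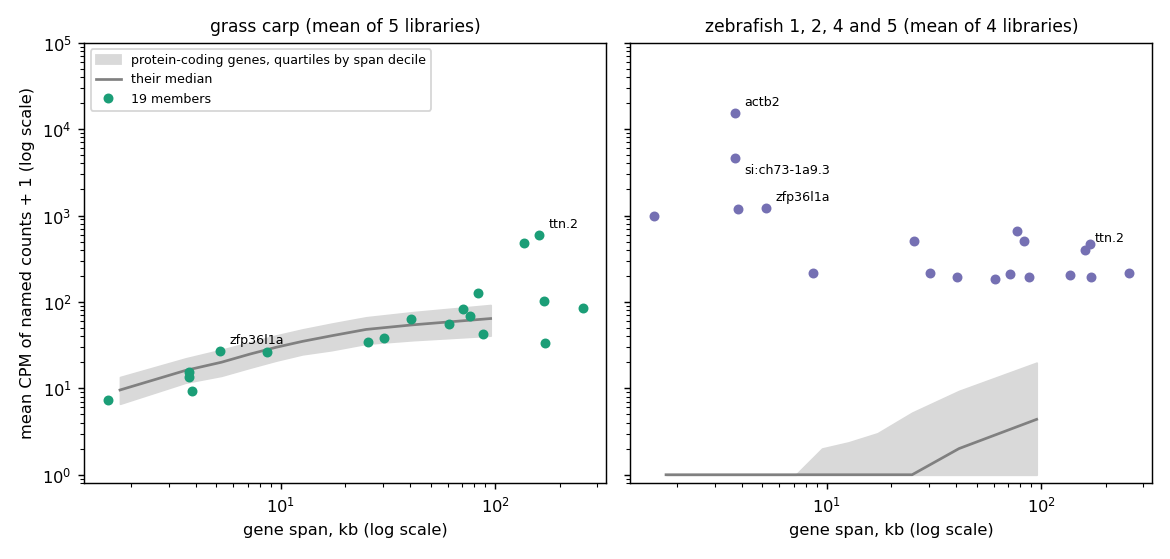
Mean CPM (plus 1, log scale) against gene span in kb (log scale) for the 19 members (points), with the quartiles and median of protein-coding genes by span decile (grey, drawn at each decile's middle). In grass carp 13 members lie between the quartiles of their own decile, and in zebrafish replicates 1, 2, 4 and 5, which chose the members, all 19 lie above it.

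GSCT and grass carp sperm were compared to ask whether counts on these genes differ between sperm made in a zebrafish host and sperm of the donor species. Counts per gene do not tell reads of mRNA from reads of unspliced RNA or genomic DNA. The origin of the reads was not tested. Neither group was used to choose the members. Among them zfhx3b was the member that rose in GSCT, and 18 did not pass. Its levels were 156, 143 and 135 CPM in GSCT replicates 1 to 3 and 126, 75.5, 107, 108 and 92.7 CPM in grass carp replicates 1 to 5, so the groups did not overlap. The log2 fold change was 0.59 ± 0.15 (SE; edgeR quasi-likelihood test, adjusted p = 0.0267). Over all 28165 genes tested 4.34% were called, 984 (3.49%) as higher and 239 as lower in GSCT, and 1 of 19 members is near that share. With library size alone 718 were called higher and 422 lower. The call was lost when any GSCT library was left out (adjusted p = 0.144, 0.163 and 0.0515 without replicate 1, 2 and 3), without grass carp replicate 5 (adjusted p = 0.0655) and with library size alone as scaling (adjusted p = 0.0518), at log2 changes of 0.52 to 0.63.

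On the same side, the next largest log2 fold changes were those of bcl11aa and of zfhx4, the relative of zfhx3b, and neither passed. The levels of zfhx4 were 83.0, 87.9 and 98.2 CPM in GSCT and 81.1, 45.5, 75.3, 76.4 and 60.3 CPM in grass carp, which did not overlap either. Its log2 fold change was 0.45 ± 0.17 (edgeR, adjusted p = 0.136). For bcl11aa the change was 0.46 ± 0.15 (edgeR, adjusted p = 0.0795) with overlapping groups. On the other side zbtb20 was at 93.8, 104 and 90.2 CPM in GSCT and at 109, 136, 135, 131 and 115 CPM in grass carp, without overlap, at -0.30 ± 0.13 (edgeR, adjusted p = 0.213). In all 3 of 19 members had groups that did not overlap, against 15.7% of all genes tested. At an unadjusted p under 0.05 edgeR gave 4 of 19 members, zfhx3b, bcl11aa, zfhx4 and zbtb20, near the share of 20.0% over all genes tested.

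Of the remaining 15 members, those with few counts had wide errors. actb2 had 26, 25 and 3 counts in GSCT and 90, 48, 103, 14 and 65 in grass carp, and its log2 fold change was -0.43 ± 0.28 (edgeR, adjusted p = 0.422). tmsb4x had 9, 13 and 2 counts in GSCT and the widest error of the 19, at -0.32 ± 0.40 (edgeR, adjusted p = 0.709). The titins had the most counts, with ttn.2 at 0.10 ± 0.16 (edgeR, adjusted p = 0.773) and ttn.1 at 0.15 ± 0.16 (adjusted p = 0.660). The median log2 fold change of the 19 was 0.08, beside -0.01 over all genes tested, with 15 members above 0 and 4 below. With library size alone these were 0.01 and -0.08, with 10 members above 0 and 9 below. Without grass carp replicate 2 the members' median was -0.01433, beside -0.01109 over all genes tested, with 9 members above 0 and 10 below. With any other single library left out the members' median stayed above 0, at 0.05 to 0.17. A change that missed the threshold does not show that levels were alike.

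**Figure D4:**
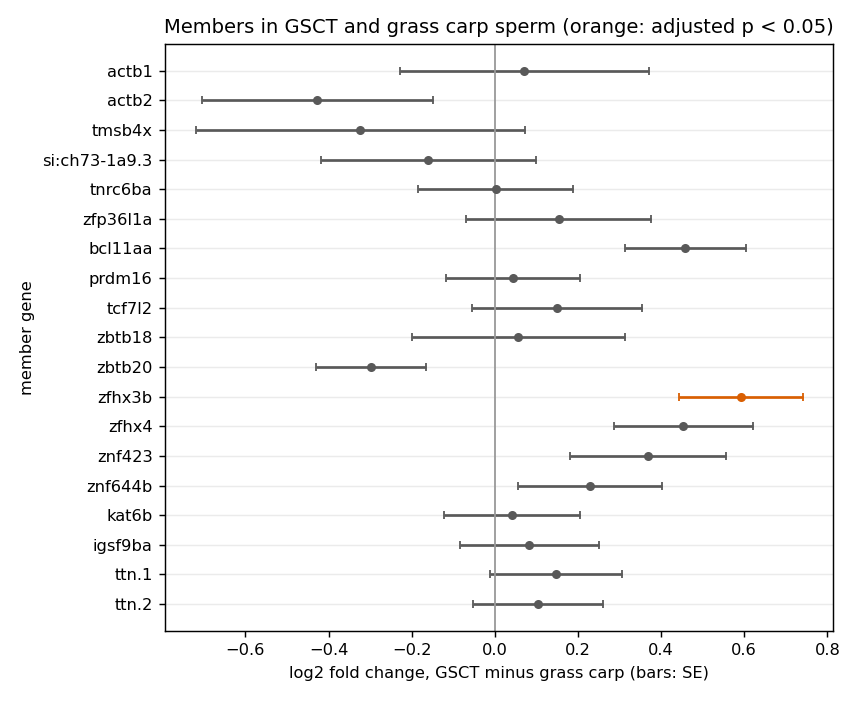
log2 fold change of each member, GSCT minus grass carp, from edgeR's quasi-likelihood fit (bars are SE, 3 GSCT and 5 grass carp libraries). zfhx3b at 0.59 is the orange point past an adjusted p of 0.05, bcl11aa and zfhx4 come next at 0.46 and 0.45, and the 18 members that did not pass lie between -0.43 and 0.46.

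Genes of set roles were listed beside the members: 11 lists of cytoskeleton, muscle contraction, ESCRT and membrane traffic, translation elongation, RNA binding, ubiquitin and proteasome, chaperonin, chromatin, calmodulin and signalling, energy metabolism, and iron and antioxidant genes. Members are found only in the cytoskeleton list (actb1, actb2, tmsb4x) and the muscle contraction list (ttn.1, ttn.2). No list was made of DNA-binding factors or adhesion genes, so most members are not set among genes of their role. Of 342 listed genes that are no members, 41 had a count in all 4 zebrafish libraries of the rule and 142 were at 0 in all 5. That none reached 15 counts in all 4 follows from the rule. Between GSCT and grass carp 1 of 345 tested passed (0.290%, beside 4.34% over all genes tested), and 46 had an unadjusted p under 0.05 (13.3%, beside 20.0%). The gene that passed was calm2b, 1 of several near-identical calmodulin genes, which fell by 2.13 ± 0.53 on the log2 scale (edgeR, adjusted p = 0.0240), from 56.1 ± 39.8 CPM in grass carp (SD, n = 5) to 15.4 ± 7.32 CPM in GSCT (SD, n = 3). The call was lost in DESeq2, which called 0 of the listed genes, and when any GSCT library was left out. In the other 10 lists 0 genes passed. The median log2 fold change of the listed genes was -0.15, beside -0.01 over all genes tested.

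Markers of other cell types that a sperm sample could hold were mostly at 0 or low in zebrafish libraries. So were most genes: 237 to 6264 of 31314 named entries had a count in a zebrafish library, and median protein-coding CPM was 0 in each. A marker at 0 there does not show that a cell type was absent. Of 12 blood genes 8 were at 0 in all 5 zebrafish libraries, the globins hbaa2, hbba1 and hbba2 among them, and the summed level was 0 to 20.1 CPM. Of 14 leukocyte genes 8 were at 0, with coro1a, lcp1, mpx and lyz among them, and the sum was 0 to 118 CPM. Of 10 epithelium genes 5 were at 0, and the sum was 0 to 43.7 CPM. Of 14 testis somatic genes 12 were at 0 (sum 0 to 16.9 CPM), and of 11 oocyte genes 8 (sum 0 to 21.8 CPM). Of 20 germ cell and meiosis genes 12 were at 0, ddx4 and sycp3 among them, and the sum was 12.1 to 2426 CPM. In GSCT and grass carp libraries every one of these lists had higher sums and counts on nearly all genes, except that for germ cell genes, at 762 to 1099 CPM there, some zebrafish libraries were higher. Between GSCT and grass carp alas2 of the blood list and tdrd6 and sycp1 of the germ cell list were lower in GSCT, with log2 fold changes of -1.22 ± 0.31, -1.465 ± 0.33 and -0.64 ± 0.18 (edgeR, adjusted p = 0.0288, 0.0138 and 0.0447). That is 1 of 12 blood and 2 of 20 germ cell genes tested, all called lower. Over all 28165 genes tested 239 were called lower and 984 higher, 4.34% in both directions together. Of 14 leukocyte, 10 epithelium, 23 flagellum, 14 testis somatic and 11 oocyte genes 0 passed. Whether the 3 calls hold under other settings or with a library left out is not given here. Genes at 0 in zebrafish libraries include any whose reads did not align, and the part of other cells in the members' levels was not tested.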

How the data were processed

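Per the labels' protocols, diluted sperm of single fish went into a full-length mRNA amplification kit and an Illumina library. The authors deposited whole-number counts of reads for 31338 entries in every library. Alignment with HISAT2 and counting with featureCounts of Subread are among the tools in the submitters' processing notes, which also list CASAVA, fastp, FastQC and SAMtools. For build, tool versions, strand setting and treatment of multi-mapped reads the entry is: not given in the sources used here. Coordinates are therefore left out, and genes that overlap, are antisense to each other or are close copies are uncertain. A grass carp RefSeq table (HZGC01) gave gene type and span; 19 of 19 members matched. The 24 unnamed entries stayed out of totals and tests; they held 13.8 to 77.9% of zebrafish counts and at most 0.678% elsewhere. No 2 libraries held identical counts.

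GSCT and grass carp were compared over all genes with edgeR 4.0.16 in R 4.3.3 (TMM, filter by group with a minimum count of 10 and total of 15, quasi-likelihood F test, Benjamini-Hochberg adjusted p under 0.05), checked on simulated counts; an SE is the log2 fold change divided by the root of F. DESeq2 1.42.0 and other settings were alternatives. Limits of 0 take 3 counts and cover counting error only, since amplified reads are not independent molecules. Zebrafish values chose the members and have no test. The members, lists and alternatives were chosen with earlier results of these data known. Values in every library are given for the 3 marks of the set, the 8 members with the highest zebrafish CPM, called members and those at the threshold; up to 4 called genes of a role list could be named, and other genes were named after their values were seen. Cell type lists cover blood, leukocyte, epithelium, flagellum, germ cell, testis somatic and oocyte genes.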

Additional observations from a re-analysis of the deposited data

Results flagged for a closer look

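Among 42 sets of 5 libraries (19 members and 2 summary values, in grass carp and in zebrafish) 3 had a library far from the other 4, by Dixon's criterion at the 95% level, which chance meets in about 1 of 20 sets. In zebrafish, zfhx3b stood at 8213.6 CPM in replicate 3, which rests on 4 counts, against 274 to 777 CPM in the others. The gene si:ch73-1a9.3 stood at 14611 CPM in zebrafish replicate 4, with 1542 counts, against 0 to 3680 CPM in the others. In grass carp, tmsb4x stood at 3.52 CPM in replicate 1, with 18 counts, against 6.95 to 7.49 CPM in the others.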

How the results depend on the processing

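The number of members depends on the rule: a minimum of 10, 20 or 30 counts gave 56, 10 or 7 genes, asking for a count in zebrafish replicate 3 as well left 3, and leaving out each library gave 23 to 45, always with the 19 among them. The number of genes called between GSCT and grass carp was 968 to 1248 under RLE factors, library size alone, DESeq2, no filter and the replicate block, against 1223, and 285 to 1534 when each library was left out (679, 285 and 812 for GSCT replicates 1 to 3, and 802 for grass carp replicate 5). The number of members called was 1 under these except 0 with library size alone, and 0 to 1 with a library left out. The same replicate numbers name different fish, and libraries of 1 number did not deviate together (r = 0.045, 0.049 and -0.009 for replicates 1, 2 and 3; GSCT replicates 1 and 3 correlated best with grass carp replicates 3 and 2). The replicate block gave 996 calls. It kept zfhx3b (0.61, edgeR adjusted p = 0.0235).

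Of 95 member fold changes under the 5 other settings 84 kept direction and side of the threshold, 1 lost its call and 10 changed sign, all of uncalled members. With library size alone these were actb1 (-5.678e-05), prdm16 (-0.02436), zbtb18 (-0.01475), kat6b (-0.02869) and tnrc6ba (-0.06996). For tnrc6ba they were also RLE factors (-0.0031), DESeq2 (-0.0049), no filter (-0.01666) and the replicate block (-0.02618), and for zfp36l1a the replicate block (-0.0097). Of 152 fold changes with a library left out 131 kept both, 4 lost the call and 17 changed sign, again of uncalled members. The ranges were -0.07634 to 0.1802 for actb1, -0.08951 to 0.141 for prdm16, -0.08694 to 0.1138 for tnrc6ba, -0.08136 to 0.2356 for zbtb18, -0.0681 to 0.1252 for kat6b, -0.01433 to 0.2218 for igsf9ba and -0.07465 to 0.2837 for zfp36l1a. The cause was not tested.

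Without ribosomal RNA genes in the total, an alternative chosen after seeing the data, the mean over zebrafish libraries of the members' median level was 545 CPM in place of 226 CPM. The members' mean share of zebrafish counts was 6.78% then, and 1.33% with unnamed entries in the total, in place of 3.94%, and the median level with unnamed entries was 85.5 CPM. The rise to 545 CPM is larger than the SD of the median level over zebrafish libraries (154 CPM). The other 3 moves are over 1.5 times yet within the wide SD of the zebrafish libraries. In GSCT and grass carp the other denominators moved shares and medians by less than 1 SD, as did leaving out any library in each group. Depth limits the zebrafish values, where 1 count is 4.03 to 16.9 CPM in the libraries of the rule and 2053 CPM in replicate 3.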
